A study of Mus musculus with 18 samples.

Results

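The genes that carry fatty acids into cells and bind them there were followed in the livers of mice with and without *Gpr180*, a G protein-coupled receptor-like membrane protein. The 10 genes were chosen by name: *Cd36*, *Lpl* and *Vldlr*, the transporters and acyl-CoA synthetases *Slc27a2*, *Slc27a4* and *Slc27a5*, and the binding proteins *Fabp1*, *Fabp2*, *Fabp4* and *Fabp5*. The tables of the study hold 23352 gene symbols. Each of the 10 genes had 1 entry in every table, none had a failed estimate, and all 10 passed the minimum for the tests, a mean of at least 1 FPKM over the 18 libraries. FPKM is the number of reads of a gene scaled to transcript length and to the mapped reads of the library.

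The comparison was between 9 wild-type and 9 homozygous *Gpr180*KO mice, and 1 liver library was made from each. All 18 mice were male, of the C57BL/6J background, 20 weeks old, and had been fed a high-fat diet (HFD) for 12 weeks from 8 weeks of age. So the controls had the diet too, and livers of mice on normal diet were not analysed here. The *Gpr180*KO allele was made with CRISPR/Cas9 in fertilized eggs by deleting an internal exon, and it is present in every tissue, so effects that begin in the liver and elsewhere cannot be told apart in these libraries. The paper addressed this question with knockdown in the liver, on a methionine and choline-deficient diet in place of HFD. It also used hepatic re-expression of GPR180 in *Gpr180*KO mice on HFD. For re-expression it reports partly restored lipid levels, and higher lipogenic mRNA, mTOR and 4E-BP phosphorylation and SREBP1 activation. Neither experiment was analysed here. The sample titles come in 2 styles. Style 1 holds 4 mice of each genotype (W317 to W320 and KO319 to KO322) and style 2 holds 5 of each (W131, W133, W134, W156 and W157, and KO51 to KO54 and KO56), and the styles were treated as possible batches. The labels do not say what the styles mark.

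Long-chain fatty acids reach the hepatocyte bound to albumin, in chylomicron remnants and after lipolysis. CD36 is a scavenger receptor of the cell surface that eases their entry, lipoprotein lipase frees them from triglyceride-rich lipoproteins, and the VLDL receptor binds such particles. SLC27 proteins (fatty acid transport proteins) couple entry to activation, since they are acyl-CoA synthetases, and FABP proteins hold fatty acids in solution in the cytoplasm. In the liver CD36, lipoprotein lipase and the VLDL receptor are normally scarce and can increase in steatosis, while FABP1 and the SLC27A2 and SLC27A5 proteins are typical of hepatocytes.

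*Gpr180* was measured first, as a check of the labels. Its mean was 6.79 ± 1.99 FPKM in wild-type livers and 1.60 ± 0.371 in *Gpr180*KO livers (SD, n = 9 each), or 23.6% of the wild-type mean, with no overlap of the genotypes (adjusted p = 4.74e-06). FPKM takes in all exons, so transcripts that lack only the deleted exon still count. Summed over all genes, a library held 554796 to 588433 FPKM in wild-type mice and 561839 to 718746 in *Gpr180*KO mice. The highest sum was that of KO51, a library that also stood apart in several of the 10 genes, as given with them. The depth of the libraries relative to the deepest was 60.7 to 100% in wild-type mice (median 75.2%) and 44.1 to 93.1% in *Gpr180*KO mice (median 68.3%).

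The levels of the 10 genes differed widely. *Fabp1*, the main fatty acid binding protein of hepatocytes, had a mean of 18714 FPKM over all 18 livers. It was followed by *Slc27a2* at 616 FPKM, *Slc27a5* at 361, *Fabp2* at 287, *Cd36* at 82.8, *Fabp5* at 39.0, *Fabp4* at 37.6, *Slc27a4* at 11.4, *Lpl* at 8.52 and *Vldlr* at 1.07. FPKM is a level per transcript length, so these values can be set beside each other across genes, with a limit for short transcripts. For *Fabp1* the deposited FPKM was 1.69 times the midpoint of its own deposited bounds, for *Fabp4* it was 1.31 to 1.40 times, for *Fabp2* 1.24 to 1.25 times, and for *Slc27a2* and *Slc27a5* it was 1.08 to 1.09 times, whereas the other 5 genes lay within 2% of it. Apart from *Fabp4*, this ratio was almost the same in every library of a gene, so it touches levels between genes more than the genotypes. For *Fabp4* the log2 fold change (*Gpr180*KO minus wild type) was -0.54 by the midpoints and -0.56 by the deposited FPKM.

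The order was the same in every liver for most neighbours. *Fabp1* was above *Slc27a2*, *Slc27a2* above *Slc27a5*, *Fabp2* above *Cd36*, *Fabp4* above *Slc27a4* and *Lpl* above *Vldlr* in 18 of 18 livers. *Slc27a5* exceeded *Fabp2*, and *Cd36* exceeded *Fabp5*, in 17 of 18. *Fabp5* exceeded *Fabp4* in only 8 of 18 livers, or in 15 of 18 by the midpoints, and *Slc27a4* exceeded *Lpl* in 13 of 18, so neither of these pairs could be ordered.

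**Figure D1:**
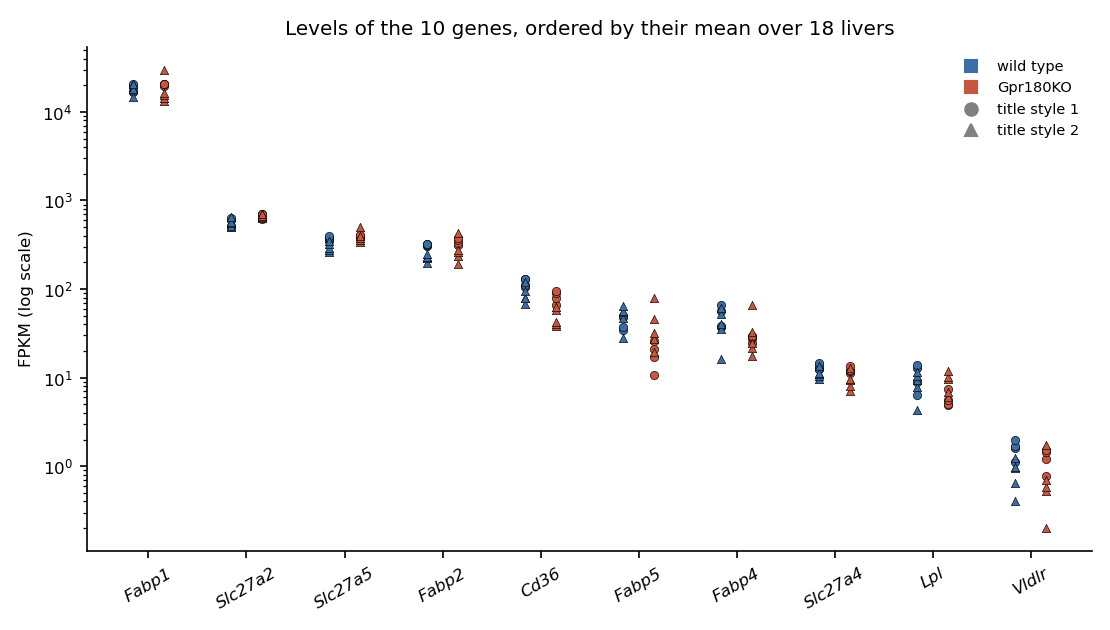
FPKM on a log axis of the 10 genes in each of the 18 livers, ordered by the mean over all livers, with wild type in blue and *Gpr180*KO in red, circles for title style 1 and triangles for title style 2. *Fabp1* lay at or above 13217 FPKM in every liver and *Vldlr* lay at or below 2.00 FPKM in every liver.

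The genotype comparison used limma on log2(FPKM + 0.1) with adjustment over all 10835 genes tested and a threshold of 0.05. Of the 10 genes, *Cd36* fell and *Slc27a2* rose in *Gpr180*KO livers, and the other 8 did not pass the test. Over all genes tested, 464 (4.28%) were lower and 49 (0.452%) were higher, and 1 gene of 10 in each direction is too small a count to set the 10 genes apart from that background. With title style as a block, 1031 of the 10835 genes were called lower and 122 higher, which is the background for calls under that fit. The median log2 fold change was -0.26 over the 10 genes and -0.13 over all genes tested. Means were lower in *Gpr180*KO livers for 6 of the 10 genes. Of all genes tested, 76.9% had a log2 fold change below 0, or 44.8% with median-of-ratios scaling. The count of 6 therefore shows no lean of the 10 genes toward lower values. Directions were the same within both title styles for 8 genes: *Cd36*, *Vldlr*, *Fabp4*, *Fabp5* and *Slc27a4* were lower in both, *Fabp2*, *Slc27a2* and *Slc27a5* were higher in both, and *Fabp1* and *Lpl* differed in direction between the styles.

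Because the median of all genes was below 0, values are also given with median-of-ratios scaling, which moved that median to 0.02 and changed the split of calls to 144 lower and 146 higher genes. Under it the median of the 10 genes was -0.11. The same 2 genes were called, *Cd36* lower and *Slc27a2* higher, and no gene of the 10 changed direction.

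**Figure D2:**
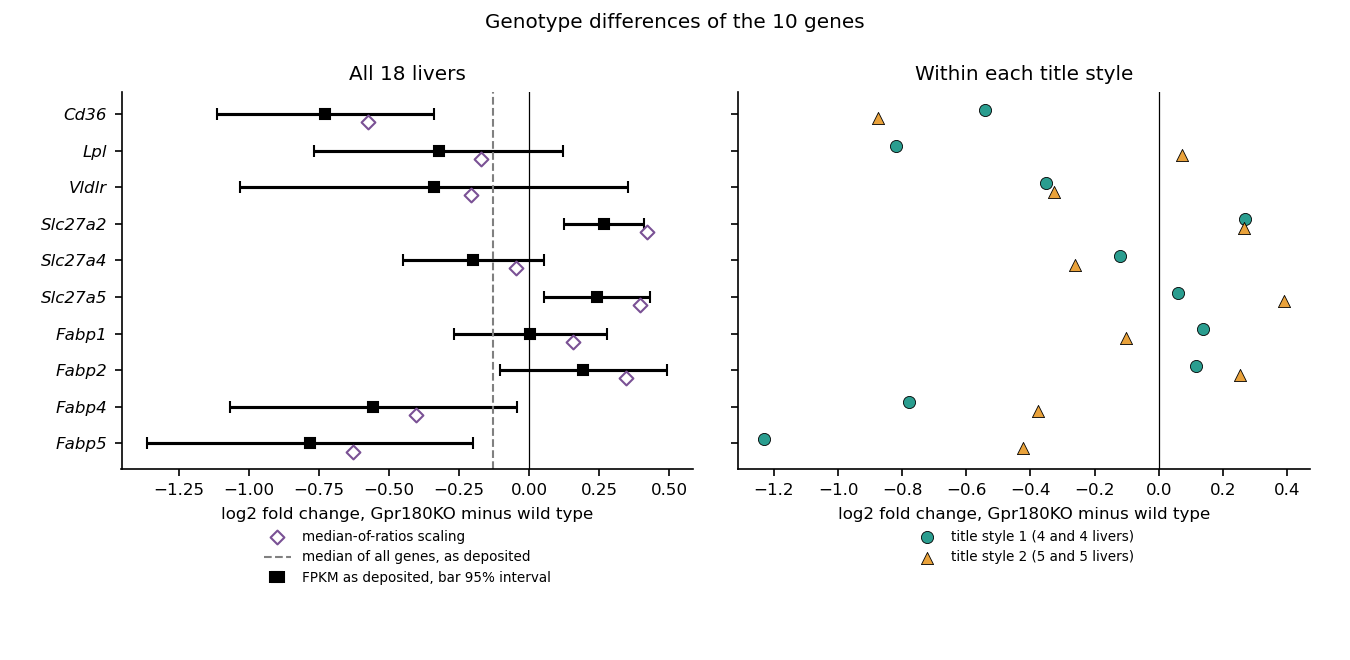
Log2 fold change (*Gpr180*KO minus wild type) of the 10 genes. Left, all 18 livers, with squares for FPKM as deposited and bars for the 95% interval, diamonds for median-of-ratios scaling and a dashed line at the median of all genes (-0.13). Right, the difference of mean log2 values within title style 1 (circles) and title style 2 (triangles). The *Slc27a2* symbols of both styles lie at 0.27, whereas those of *Lpl* lie at -0.82 and 0.07.

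*Cd36* was the gene most clearly lower in *Gpr180*KO livers. In wild-type livers it ran from 67.5 FPKM in W157 to 131.2 in W318, with a median of 106, and in *Gpr180*KO livers from 38.4 in KO51 to 95.5 in KO321, with a median of 62.7. All 9 *Gpr180*KO livers lay below the wild-type mean and 6 of them lay below every wild-type liver, so the genotypes overlapped only through livers of title style 1 in *Gpr180*KO mice and of title style 2 in wild-type mice. The mean was 102 ± 23.2 FPKM in wild-type and 63.4 ± 21.2 in *Gpr180*KO livers (SD, n = 9 each), or 62.0% of the wild-type mean (log2 fold change -0.73, SE 0.19, adjusted p = 0.0337). The log2 fold change less the median of all genes was -0.60.

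Within each title style the genotypes did not overlap for *Cd36*. In title style 1 wild-type livers held 105.9 to 131.2 FPKM and *Gpr180*KO livers 65.6 to 95.5. In title style 2 wild-type livers held 67.5 to 121 FPKM and *Gpr180*KO livers 38.4 to 62.7. Of all genes tested 11.5% were lower without overlap in style 1 and 5.5% in style 2. *Cd36* was the only one of the 10 genes whose *Gpr180*KO livers were all below the wild-type livers of their own style in both styles, a pattern that 1.18% of all genes tested had. The styles also differed from each other: within *Gpr180*KO mice every liver of style 2 was below every liver of style 1. With title style as a block the adjusted p of *Cd36* was 0.00369, and with median-of-ratios scaling it was 0.0491 (log2 fold change -0.57).

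The call of *Cd36* did not hold under every alternative. It was lost with 75th percentile scaling (adjusted p = 0.0587), in title style 2 alone (log2 fold change -0.87, adjusted p = 0.0896, where no gene of all tested was called), and without any one of W317 (0.0728), W318 (0.0697), W320 (0.0604), W133 (0.0750), KO52 (0.0599), KO53 (0.0663) or KO54 (0.0620), although the log2 fold change stayed between -0.81 and -0.65 when single livers were left out. Without KO51, the liver with the lowest *Cd36*, the adjusted p was 0.0409.

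*Cd36* lies on the minus strand of chr5:17781690-17888801 (GRCm38), with 6 transcripts in GENCODE M21 that start at several first exons. Its promoter is shown because CD36 is a known target of PPAR factors, which bind, with RXR, to direct repeats of AGGTCA spaced by a single base. The RefSeq promoter table holds 300 bases per start site, 250 before it and 50 after it, and had entries for 6 of the 10 genes: *Cd36*, *Vldlr*, *Fabp1*, *Fabp2*, *Slc27a2* and *Slc27a4*. These were searched on both strands for AGGTCA, any base, and AGGTCA again. Of all 32851 promoters so listed, 0.0396% held the motif exactly, 0.554% with at most 1 mismatch and 3.86% with at most 2. The best match of *Cd36* had 2 mismatches and that of *Fabp1* had 1, and the other 4 genes had no match within 2 mismatches. Both matches, on the strand opposite to the gene, are in capitals in the bases before the RefSeq start sites, printed 5′ to 3′ on the strand of the gene up to the first annotated exon (*Cd36*, chr5:17835897-17836146, minus strand; *Fabp1*, chr6:71199629-71199826, plus strand; GRCm38.p6). The *Cd36* bases lie in an intron of its longer transcripts.
Cd36: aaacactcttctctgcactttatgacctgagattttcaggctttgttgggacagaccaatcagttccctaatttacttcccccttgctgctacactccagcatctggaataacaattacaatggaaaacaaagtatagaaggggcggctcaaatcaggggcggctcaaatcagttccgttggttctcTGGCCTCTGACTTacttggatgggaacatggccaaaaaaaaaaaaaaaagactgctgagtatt
Fabp1: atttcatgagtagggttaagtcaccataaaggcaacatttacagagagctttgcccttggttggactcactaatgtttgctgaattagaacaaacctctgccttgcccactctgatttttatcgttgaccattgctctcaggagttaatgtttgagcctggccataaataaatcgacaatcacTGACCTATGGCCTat
The *Cd36* match lies 63 to 51 bases before the start site and differs from the motif as read on the opposite strand (TGACCT, any base, TGACCT) by A3G and C12T, with positions counted from 1 at the first base in capitals. The *Fabp1* match lies 67 to 55 bases before the start site and differs by A10G. A match of letters is a description of the window and does not show that a factor binds there.

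*Slc27a2* rose in *Gpr180*KO livers. It encodes a very long-chain acyl-CoA synthetase of peroxisomes and the endoplasmic reticulum that also transports fatty acids, and it lies on the plus strand of chr2:126552407-126588243 (GRCm38). In wild-type livers it ran from 495 FPKM in W134 to 648 in W156, with a median of 555, and in *Gpr180*KO livers from 621 in KO320 to 707 in KO322, with a median of 665. All 9 *Gpr180*KO livers lay above the wild-type mean and 7 of them above every wild-type liver, so that only KO320 and KO56 lay within the wild-type range. The mean was 560 ± 58.1 FPKM in wild-type and 672 ± 32.1 in *Gpr180*KO livers (SD, n = 9 each), or 120% of the wild-type mean (log2 fold change 0.27, SE 0.07, adjusted p = 0.0337).

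The size of the *Slc27a2* difference was the same in both title styles, 0.27 on the log2 scale in each, and the mean log2 level of style 2 less that of style 1 was -0.01 in each genotype. Livers of the *Gpr180*KO group were also closer to each other, with a coefficient of variation of 4.78% against 10.4% in wild-type livers. Less the median of all genes the log2 fold change was 0.39. Its adjusted p was 0.0152 with title style as a block and 0.0230 with median-of-ratios scaling (log2 fold change 0.42). The call was lost with TPM (adjusted p = 0.0928), within either style alone (0.107 and 0.206), and without any one of W317 (0.0691), W318 (0.0687), W133 (0.0740), KO52 (0.0603), KO53 (0.0584) or KO54 (0.0521), while the log2 fold change stayed between 0.25 and 0.29 when single livers were left out.

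Because *Cd36* was lower and *Slc27a2* higher, their ratio in the same liver, which no scaling between libraries can change, is also given. In title style 1 the FPKM of *Slc27a2* was 3.84 to 5.78 times that of *Cd36* in wild-type livers and 6.96 to 10.7 times in *Gpr180*KO livers. In title style 2 it was 4.28 to 8.54 times in wild-type and 10.2 to 17.3 times in *Gpr180*KO livers. The ratios of the genotypes did not overlap within a style. Nor did *Cd36* alone, whereas *Slc27a2* alone overlapped within each style. The 2 genes were paired because they were called in opposite directions, so the ratio is given as a description.

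**Figure D3:**
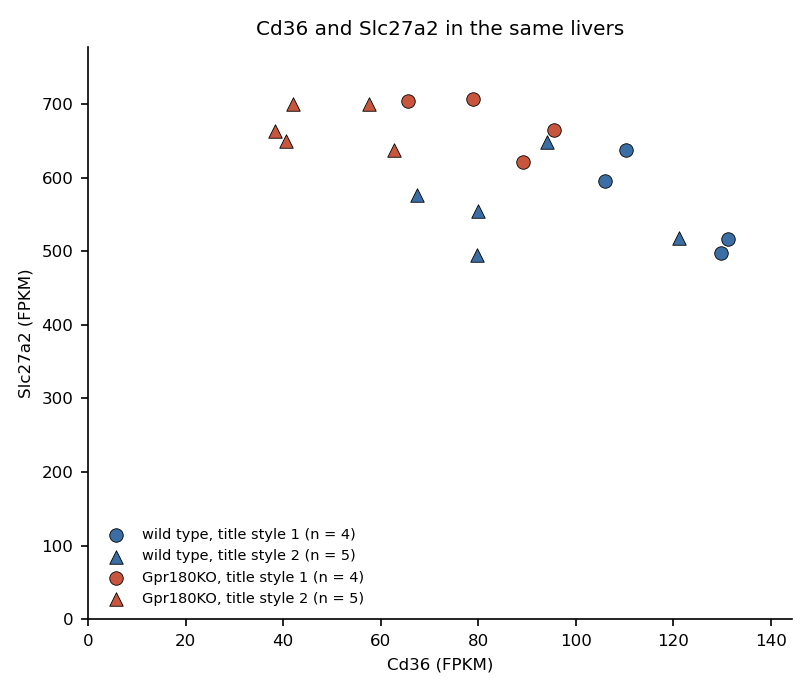
FPKM of *Slc27a2* against FPKM of *Cd36* in each of the 18 livers, in blue for wild type and in red for *Gpr180*KO, with circles for title style 1 and triangles for title style 2. *Gpr180*KO livers lie to the upper left, with *Slc27a2* at 621 to 707 and *Cd36* at 38.4 to 95.5.

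The other 2 SLC27 genes did not pass the test. *Slc27a5* encodes the bile acid-CoA ligase and very long-chain acyl-CoA synthetase of hepatocytes (chr7:12988346-12998192, minus strand, GRCm38). It ran from 264 to 397 FPKM in wild-type livers, with a median of 347, and from 338 to 500 in *Gpr180*KO livers, with a median of 377. All 9 *Gpr180*KO livers were above the wild-type mean, but only 2 of them, KO319 and KO51, were above every wild-type liver. The mean was 331 ± 47.2 against 391 ± 45.7 FPKM (log2 fold change 0.24, SE 0.09, adjusted p = 0.124), and with median-of-ratios scaling the log2 fold change was 0.40. The difference was 0.06 on the log2 scale in title style 1 and 0.39 in title style 2, where wild-type livers held 264 to 346.9 FPKM, below every wild-type liver of style 1 (347.0 to 397). The interaction of genotype and style for *Slc27a5* was 0.33 (SE 0.15, unadjusted p = 0.0449, adjusted p = 0.644), so the styles were not shown to differ after adjustment. With median-of-ratios scaling and title style as a block the adjusted p of *Slc27a5* between genotypes was 0.0405.

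*Slc27a4*, the main fatty acid transport protein of the gut (chr2:29802634-29817522, plus strand, GRCm38), was low in liver. It held 9.55 to 14.5 FPKM in wild-type livers, with a median of 12.5, and 7.06 to 13.4 in *Gpr180*KO livers, with a median of 11.3. The groups overlapped over most of their range and 3 *Gpr180*KO livers were below every wild-type liver (log2 fold change -0.20, SE 0.12, adjusted p = 0.338). Leaving out KO53 gave a log2 fold change of -0.13, and median-of-ratios scaling gave -0.05. Of the FPKM summed over the 6 SLC27 genes, *Slc27a2* made up 61.8 ± 3.27% in wild-type and 62.5 ± 2.54% in *Gpr180*KO livers, *Slc27a5* 36.5 ± 3.15% and 36.2 ± 2.48%, and *Slc27a4* 1.34 ± 0.211% and 0.986 ± 0.182% (SD, n = 9 each). The sum of the family was 771 to 1029 FPKM in wild-type and 1001 to 1179 in *Gpr180*KO livers.

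**Figure D4:**
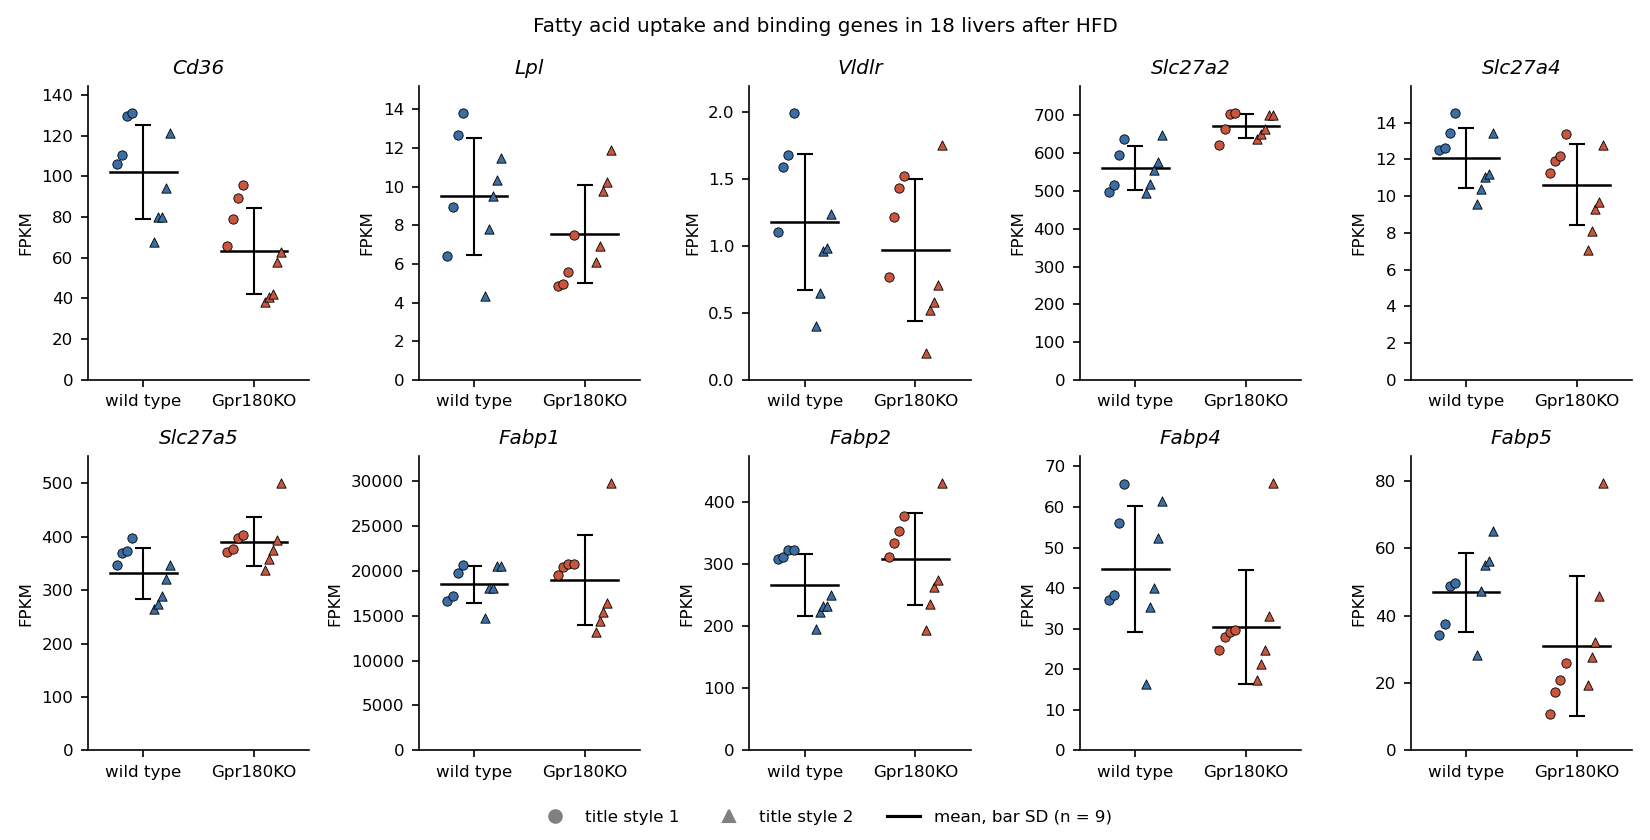
FPKM of each of the 10 genes in each of the 18 livers, with circles for title style 1, triangles for title style 2, lines for the mean and bars for the SD of 9 livers per genotype. In the panels of *Fabp1*, *Fabp2*, *Fabp4*, *Fabp5* and *Slc27a5* the highest triangle is the *Gpr180*KO liver KO51.

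*Fabp4* and *Fabp5*, binding proteins best known from adipocytes, macrophages and epidermis, had lower means in *Gpr180*KO livers but did not pass the test over all livers. They lie near each other on chromosome 3 (*Fabp5*, chr3:10012548-10016607, plus strand, and *Fabp4*, chr3:10204088-10208576, minus strand, GRCm38). *Fabp5* ran from 28.4 FPKM in W134 to 65.1 in W133, with a median of 48.8, in wild-type livers, and from 10.8 in KO321 to 79.4 in KO51, with a median of 26.1, in *Gpr180*KO livers. Of the *Gpr180*KO livers 6 were below every wild-type liver and KO51 was above every one. The mean was 47.0 ± 11.7 against 31.1 ± 20.7 FPKM (log2 fold change -0.78, SE 0.28, adjusted p = 0.105). Without KO51 the log2 fold change was -0.98 and the adjusted p was 0.0228. GENCODE lists a copy of this gene, *Fabp5l2*, which was not analysed here, and how reads shared with it were counted is not given in the sources used here.

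*Fabp4* held 16.3 to 65.6 FPKM in wild-type livers, with a median of 40.04, and 17.5 to 65.8 in *Gpr180*KO livers, with a median of 27.9. Its *Gpr180*KO livers apart from KO51 held at most 33.1 FPKM, below all wild-type livers but W157. The mean was 44.7 ± 15.5 against 30.4 ± 14.1 FPKM (log2 fold change -0.56, SE 0.25, adjusted p = 0.190). Without KO51 the log2 fold change was -0.71 and the adjusted p was 0.0558, and without W157, the lowest wild-type liver, they were -0.72 and 0.0356.

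In title style 1 all *Gpr180*KO livers lay under the wild-type range for both genes and for *Cd36*, as for 11.5% of all genes tested. There *Fabp5* held 34.3 to 49.6 FPKM in wild-type and 10.8 to 26.1 in *Gpr180*KO livers, and *Fabp4* held 37.0 to 65.6 and 24.6 to 29.7. In title style 1 alone *Fabp5* (log2 fold change -1.23, adjusted p = 0.0361), *Fabp4* (-0.78, 0.0455) and *Cd36* (-0.54, 0.0439) were called lower, among 4.5% of all genes tested. In title style 2 alone no gene of the 10835 was called by limma, and 2019 had an unadjusted p under 0.05, and the log2 fold changes were -0.42 for *Fabp5* and -0.38 for *Fabp4*. A difference between the styles was not called for either gene (interaction 0.81 with adjusted p = 0.720 for *Fabp5*, 0.40 with adjusted p = 0.857 for *Fabp4*).

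*Fabp1* and *Fabp2*, the FABP genes named for liver and intestine, did not pass the test. *Fabp1* (chr6:71199827-71205023, plus strand, GRCm38) held 14789 to 20673 FPKM in wild-type livers, with a median of 18086, and 13217 to 29740 in *Gpr180*KO livers, with a median of 19495. Its means were almost equal, 18472 ± 2061 and 18957 ± 4971 FPKM, and the *Gpr180*KO livers spread beyond the wild-type range on both sides. The log2 fold change was 0.01 with a 95% interval from -0.27 to 0.28 (adjusted p = 0.985). Its sign changed with TPM, in title style 2 alone and without single livers, so no direction can be given. The 4 *Gpr180*KO livers of title style 1 lay between 19495 and 20782 FPKM, whereas those of title style 2 other than KO51 lay between 13217 and 16460.

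*Fabp2* (chr3:122895072-122899506, plus strand, GRCm38) held 196 to 323 FPKM in wild-type livers, with a median of 249.7, and 193 to 430 in *Gpr180*KO livers, with a median of 311. The wild-type livers separated by title style, 309 to 323 FPKM in style 1 and 196 to 249.7 in style 2. The mean was 266 ± 49.6 against 308 ± 74.2 FPKM, and 4 *Gpr180*KO livers exceeded every wild-type liver (log2 fold change 0.19, SE 0.14, adjusted p = 0.430). Leaving out KO51 gave a log2 fold change of 0.13, and median-of-ratios scaling gave 0.35. *Fabp1* made up 98.1 ± 0.356% of the FPKM of the FABP family in wild-type livers and 98.05 ± 0.224% in *Gpr180*KO livers, and *Fabp2* made up 1.43 ± 0.284% and 1.61 ± 0.226% (SD, n = 9 each), so any difference in *Fabp4* or *Fabp5* concerned under 1% of the binding protein RNA.

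*Lpl* and *Vldlr*, which act on lipoproteins, were low and did not pass the test. *Lpl* (chr8:68880491-68907448, plus strand, GRCm38) held 4.35 to 13.8 FPKM in wild-type livers, with a median of 9.50, and 4.89 to 11.9 in *Gpr180*KO livers, with a median of 6.91. The genotypes overlapped widely (9.50 ± 3.01 against 7.54 ± 2.53 FPKM, log2 fold change -0.32, SE 0.21, adjusted p = 0.377), and the log2 fold change was -0.17 with median-of-ratios scaling. In title style 1 the difference was -0.82 on the log2 scale, with 6.44 to 13.8 FPKM in wild-type and 4.89 to 7.48 in *Gpr180*KO livers, and in title style 2 it was 0.07. The interaction of genotype and style was 0.89 (SE 0.39, unadjusted p = 0.0350, adjusted p = 0.641), so the styles were not shown to differ after adjustment.

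*Vldlr* (chr19:27216484-27254231, plus strand, GRCm38) held 0.406 to 2.00 FPKM in wild-type livers, with a median of 1.11, and 0.200 to 1.75 in *Gpr180*KO livers, with a median of 0.772. The groups shared most of their range, and livers of title style 2 were mostly the lower ones in both genotypes, apart from KO56, the highest *Gpr180*KO liver. The mean was 1.18 ± 0.507 against 0.968 ± 0.530 FPKM (log2 fold change -0.34, SE 0.33, adjusted p = 0.553). Leaving out KO51 gave a log2 fold change of -0.13, and median-of-ratios scaling gave -0.21. The half-width of its deposited bounds was 10.7 to 37.1% of their midpoint, against 2.65 to 5.68% for *Cd36* and 0.660 to 1.01% for *Fabp1*, so the precision of single values was lowest here. The level of confidence of those bounds is not given in the sources used here.

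KO51 was the extreme liver for several of these genes. Among the 18 livers it was the highest for *Fabp1*, *Fabp2*, *Fabp4*, *Fabp5* and *Slc27a5* and the lowest for *Cd36* and *Vldlr*. Without it, *Cd36*, *Fabp5* and *Slc27a2* were called, against *Cd36* and *Slc27a2* with it, and 778 genes of all were called in place of 513. *Cfd*, the gene of adipsin, was also highest in KO51, at 277.7 FPKM against at most 97.1 in the other 17 livers. Of the other 5 adipocyte markers *Retn*, the gene of resistin, was also highest in KO51, at 1.26 FPKM against at most 0.172 in the other 17 livers. *Adipoq*, *Plin1*, *Lep* and *Adig* were listed at 0 in KO51, as they were in 12 to 18 of the 18 livers. The summed FPKM of the hepatocyte markers given below was also highest in KO51, at 62517, and next highest in KO319, at 39704.5. What sets KO51 apart was not tested.

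How the genes varied from liver to liver was compared after the mean of each genotype was removed, as a Pearson correlation of log2 values over the 18 livers. These livers share title style, library depth and the scale of the library, so the values are descriptions. Among the 10 genes *Cd36* and *Vldlr* had the highest correlation (0.76), followed by *Fabp1* and *Slc27a4* (0.74), and *Vldlr* and *Fabp5* had the lowest (-0.62), followed by *Cd36* and *Fabp5* (-0.54). KO51 was the lowest liver for *Cd36* and *Vldlr* and the highest for *Fabp5*, and correlations without it were not computed. Across all genes tested the 3 most like *Cd36* were *Aldh3a2*, a fatty aldehyde dehydrogenase (0.97), *Osbpl3*, an oxysterol-binding protein relative (0.96), and *Elovl5*, a fatty acid elongase (0.95). Those most like *Fabp1* were *Ltbr*, *Eci1* and *Slc25a1* (0.91 to 0.92), and those most like *Fabp2* were *Pebp1*, *Rtfdc1* and *Arpc1a* (0.96). For *Slc27a2* the closest were *Sun2* (0.80), *Fbxo21* (0.80) and *1300018J18Rik* (0.69), and for *Slc27a5* they were *Asgr2* (0.94), *Acy1* (0.91) and *C330021F23Rik* (0.91). For *Slc27a4* they were *Cdipt* (0.96), *H2-K2* (0.95) and *Trip6* (0.94). *Fabp4* was closest to *Trim47* (0.90), *Myl12a* (0.89) and *2200002D01Rik* (0.88), *Fabp5* to *Tm7sf2* (0.81), *Hes6* (0.78) and *Fdx1* (0.78), *Lpl* to *Oxct1* (0.85), *Hpx* (0.84) and *Stk17b* (0.83), and *Vldlr* to *Rcan2* (0.92), *Gnpda1* (0.91) and *Ctns* (0.91). None of these genes was called between the genotypes (lowest adjusted p = 0.127, for *Oxct1*).

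The remaining genes of the same families were scarce. Of 9 further FABP and SLC27 genes only *Slc27a1* (log2 fold change 0.16, adjusted p = 0.594) and *Fabp7* (0.11, 0.833) reached a mean of 1 FPKM, and neither was called. *Fabp6*, *Fabp9* and *Pmp2* were listed at 0 in every liver.

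The enzymes that activate and bind fatty acids after entry were mostly not called. Of 14 acyl-CoA synthetase, acyl-CoA binding protein and thioesterase genes tested, *Acsl3*, a synthetase of lipid droplets, fell from 16.4 ± 3.50 to 10.3 ± 2.31 FPKM (log2 fold change -0.66, SE 0.14, adjusted p = 0.0162), and none rose. *Acsl5* came next and did not pass (-0.27, adjusted p = 0.0841), but it was called lower with title style as a block (adjusted p = 0.0183), as were 1031 of all genes tested. Of 5 other genes linked to fatty acid uptake, *Cav1*, *Cav2*, *Ptrf*, *Scp2* and *Got2*, none was called, and the lowest p was that of *Cav2* (-0.55, adjusted p = 0.124).

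Of 18 genes that control lipoprotein lipase or take up remnants, 3 rose and none fell. *Scarb1*, the HDL receptor, rose from 59.4 ± 6.79 to 81.1 ± 7.20 FPKM (log2 fold change 0.45, SE 0.08, adjusted p = 0.00677). *Lipc*, hepatic lipase, rose from 68.9 ± 7.79 to 88.2 ± 11.7 FPKM (0.35, adjusted p = 0.0261), and *Apoc1*, an apolipoprotein that restrains lipoprotein lipase, rose from 9860 ± 1276 to 13986 ± 3664 FPKM (0.48, adjusted p = 0.0357). All 3 were also called with median-of-ratios scaling. The median of the 18 genes was 0.05, against -0.13 for all genes.

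*Cd36*, *Lpl*, *Fabp1* and *Fabp4* are among the known targets of PPAR factors, and of these only *Cd36* was called. *Slc27a2*, the other gene called, went the opposite way (log2 fold change 0.27, adjusted p = 0.0337 by limma). Whether PPAR factors control *Slc27a2* in these livers was not tested. None of the genes in the PPAR lists that follow was called in the main comparison. The 8 genes linked to PPARγ in steatosis all had a log2 fold change below 0 (7 of them with median-of-ratios scaling, under which *G0s2* was at 0.04), with a median log2 fold change of -0.54 (-0.39 with median-of-ratios scaling), and the examples with the lowest p were *Cidec* (-1.12, adjusted p = 0.217), *Mogat1* (-0.83, 0.224) and *Pparg* itself (-0.57, 0.253). For *Pparg* the log2 fold change was -0.07 in title style 1 and -0.97 in title style 2. For *Cidec* the values were -0.29 and -1.79, and for *Mogat1* they were -0.89 and -0.78. The lowest *Pparg* was that of KO53, at 2.37 FPKM, against a *Gpr180*KO median of 13.4. Over all genes tested, 76.9% had a log2 fold change below 0, or 44.8% with median-of-ratios scaling. Of 16 genes of PPARα and its targets, 12 had a log2 fold change below 0, near the share of all genes. Their median was -0.06, which became 0.09 with median-of-ratios scaling. *Pdk4* (-0.85, adjusted p = 0.166) and *Fgf21* (-0.61, 0.197) had the lowest p. In title styles 1 and 2 the log2 fold changes were -0.60 and -1.05 for *Pdk4* and -0.04 and -1.07 for *Fgf21*. With title style as a block *Pdk4* (adjusted p = 0.0123) and *Mogat1* (0.0446) were called lower, among 1031 of all genes tested. Of 8 genes that share the bile acid-CoA steps with *Slc27a5*, *Amacr*, the racemase of branched and bile acid CoA esters, rose from 44.8 ± 2.23 to 56.4 ± 8.34 FPKM (0.32, adjusted p = 0.0281), and none fell, although with title style as a block *Acnat2* was called lower (-0.74, adjusted p = 0.0441), among the same 1031 genes.

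*Cd36*, *Lpl*, *Fabp4* and *Fabp5* are also expressed by macrophages and other cells of the liver, so markers of those cells were measured in the same libraries. In bulk liver, fewer cells of a type and less RNA per cell cannot be told apart. A log2 fold change below 0 was found for 76.9% of all genes tested, or 44.8% with median-of-ratios scaling. Of 12 macrophage markers 10 had a log2 fold change below 0 (median -0.20, or -0.05 with median-of-ratios scaling) and 1, *Cd68*, fell from 19.3 ± 4.55 to 11.9 ± 2.84 FPKM (log2 fold change -0.69, adjusted p = 0.0257). Their summed FPKM was 320 to 753 in wild-type and 348 to 563 in *Gpr180*KO livers. Of 6 lipid-associated macrophage markers tested, 4 fell: *Spp1*, from 133.5 ± 71.6 to 30.4 ± 10.5 FPKM (-1.96, adjusted p = 0.00701), *Trem2* (-1.82, 0.0227), *Gpnmb* (-2.31, 0.0373) and *Mmp12* (-1.92, 0.0404). The median of the 6 was -1.87, and with median-of-ratios scaling only *Spp1* and *Trem2* were called. With title style as a block all 6 were called lower, including *Cd9* (-0.60, adjusted p = 0.0192) and *Lgals3* (-1.22, 0.0177), among 1031 of the 10835 genes tested. The sum over the list of 7 was 52.6 to 277 FPKM in wild-type and 27.9 to 68.5 in *Gpr180*KO livers.

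Among stellate cell and fibroblast markers calls went the same way. Of 8 tested (median -0.75), 5 fell: *Dcn*, from 144.5 ± 24.3 to 89.7 ± 12.6 FPKM (log2 fold change -0.68, adjusted p = 0.00631), *Col3a1* (-1.73, 0.0132), *Col1a1* (-1.99, 0.0161), *Pdgfrb* (-0.82, 0.0175) and *Col1a2* (-1.63, 0.0218). With title style as a block *Reln* was called lower as well, among 1031 of all genes tested (-0.56, adjusted p = 0.0150, against 0.0657 without the block). The sum over all 8 was 143 to 287 FPKM in wild-type and 79.6 to 144.8 in *Gpr180*KO livers. None of 9 endothelial markers was called, although all 9 had a log2 fold change below 0 (median -0.20, or -0.05 with median-of-ratios scaling). Of all genes tested, 76.9% had a log2 fold change below 0. None of 10 hepatocyte markers was called (median 0.12, or 0.28 with median-of-ratios scaling). Their summed FPKM was 25338.5 to 38089 in wild-type and 31288 to 62517 in *Gpr180*KO livers. The value of 62517 is that of KO51, and the next highest was 39704.5 in KO319. Of 6 adipocyte markers only *Cfd* could be tested (0.70, adjusted p = 0.602), and *Plin1* was listed at 0 in every liver. The 5 skeletal muscle markers, which sum to at most 1.40 FPKM in any liver, and the 5 enterocyte markers, at most 0.0911 FPKM, could not be tested, and *Ckm*, *Tnnt3*, *Cdx1* and *Sis* were listed at 0 in every liver. The part of these cells in the values of *Cd36*, *Lpl*, *Fabp4* and *Fabp5* was not tested.

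**Figure D5:**
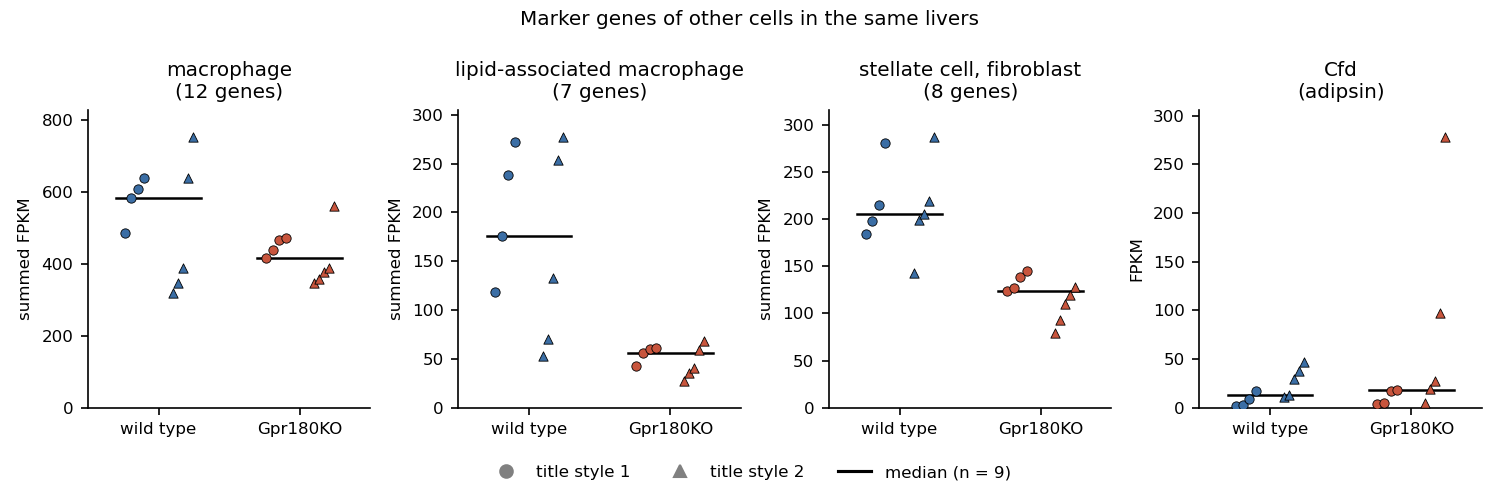
Summed FPKM of marker genes of macrophages, lipid-associated macrophages, and stellate cells and fibroblasts, and FPKM of *Cfd*, in each of the 18 livers, with circles for title style 1, triangles for title style 2 and lines for the median of 9 livers per genotype. The lipid-associated macrophage sum stayed at or below 68.5 in *Gpr180*KO livers, and the highest point of *Cfd* is KO51.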

How the data were processed

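Poly(A) RNA of 18 mouse livers was sequenced as single reads with a TruSeq kit on a NextSeq500. Reads were aligned by the authors to mm10 (GRCm38) with the TopHat Alignment application, and FPKM per gene was deposited for each mouse. The program that computed the FPKM and its annotation are not given in the sources used here. The 23847 entries of a table were summed per symbol (252 symbols had several), and the 24 genes with any of 190 estimates marked HIDATA or FAIL were left out. The paper gives an approximate range of reads per sample. Without counts, the depth of each single library is unknown, and relative depth came from the most common FPKM ratio among low genes.

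Log2(FPKM + 0.1) was compared between genotypes with limma 3.58.1 (R 4.3.3, lmFit and eBayes with trend), and p-values were adjusted by Benjamini-Hochberg over the 10835 genes that averaged 1 FPKM or more, with 0.05 as the threshold. Fold changes on this scale understate those of low genes. Genotypes came from the labels. The p-values set the difference between genotypes against the spread between these mice, with the variance of each gene moderated across genes. The steps were tested on simulated data. Alternatives were other pseudocounts and minimums, scaling by median of ratios, by the 75th percentile or to TPM, title style as a block or each style alone, robust or weighted fits, the highest entry per symbol and each liver left out. The midpoint of the deposited bounds was added after seeing the data. Genes named are the 10 genes and the 3 most alike each. In each list they are the 2 to 4 with the lowest p or every gene called. *Cfd*, *Adipoq* and *Plin1* in KO51 were chosen after seeing their values. *Fabp5l2*, whose values were not analysed, was named after seeing the data. The 10 genes and all lists were chosen with earlier results of these data known. Gene positions came from GENCODE M21 and promoters from RefSeq (GRCm38.p6). Figures were drawn with matplotlib 3.10.9.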

Additional observations from a re-analysis of the deposited data

Results flagged for a closer look

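In 3 of the 10 genes the *Gpr180*KO liver KO51 lay far from the other 8 livers of its genotype, with a gap to the nearest liver that took up 54.2 to 67.6% of the range of the 9 livers. *Fabp1* was 29740 FPKM in KO51 and at most 20782 in the others. *Fabp4* was 65.8 FPKM in KO51 and at most 33.1 in the others. *Slc27a5* was 500.1 FPKM in KO51 and at most 404 in the others. About 1 in 20 groups would be picked out this way by chance, and the 3 values come from the same library, which also had the highest FPKM sum (718746). Without KO51 none of these 3 genes was called (adjusted p = 0.684 for *Fabp1*, 0.0558 for *Fabp4* and 0.141 for *Slc27a5*). The cause was not tested.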

How the results depend on the processing

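The number of the 10 genes called was 2 as reported. It was 1 with 75th percentile scaling (*Slc27a2*) and 1 with TPM (*Cd36*), 0 in title style 2 alone and 5 with weights per library (*Cd36*, *Slc27a2*, *Fabp4*, *Fabp5* and *Lpl*), and it ran from 0 to 3 when single livers were left out. It lay between 2 and 3 with the other pseudocounts, minimums and scalings, title style as a block, title style 1 alone, the robust fit, the highest entry per symbol and the midpoint of the deposited bounds. *Lpl* changed sign in title style 2 alone (0.074), and *Fabp1* with TPM (-0.032), in title style 2 alone (-0.10) and without single livers (-0.081 to 0.065). The interaction of genotype and title style was near 0 for *Vldlr* (0.026) and *Slc27a2* (-0.00056) and changed sign with a pseudocount of 0.01 (-0.023) or TPM (-0.058) for *Vldlr* and with median-of-ratios (0.12) or 75th percentile scaling (0.080) for *Slc27a2*. No interaction was called for any of the 10835 genes by limma, and 833 had an unadjusted p under 0.05. Over all genes the count called was 513, and it was 238 with a minimum of 5 FPKM, 290 (144 lower, 146 higher) with median-of-ratios and 253 (187 lower, 66 higher) with 75th percentile scaling, 1153 with title style as a block, 0 in title style 2 alone, 1331 with weights per library, and 132 without W133 to 922 without W157. The causes were not tested. No paired analysis was possible because the labels name each mouse singly and tie no wild-type mouse to a *Gpr180*KO mouse.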

Other observations

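Ratios of 2 genes within a liver do not depend on the scale of the library. *Fabp1* exceeded *Fabp2* by 53.2 to 92.4 times in wild-type and 48.3 to 74.4 times in *Gpr180*KO livers. Among wild-type livers the ratio was 53.2 to 64.0 in title style 1 and 66.6 to 92.4 in title style 2, so the styles did not overlap, whereas in *Gpr180*KO livers they did (51.7 to 66.8 and 48.3 to 74.4). *Slc27a2* exceeded *Slc27a5* by 1.35 to 2.02 times in wild-type and 1.33 to 1.92 times in *Gpr180*KO livers, and the genotypes shared nearly the whole range. *Fabp4* was 0.296 to 1.41 times *Fabp5* in wild-type and 0.632 to 2.71 times in *Gpr180*KO livers. The lowest of these ratios was that of W157 and the highest that of KO321.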
